A study of Mus musculus with 3 samples.

Results

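The globin genes Hbb-b1, Hbb-b2, Hbb-bh1, Hbb-y, Hba-a1 and Hba-x and the alpha globin chaperone gene Eraf (also called Ahsp) were followed across bone marrow, adult liver and fetal liver of C57BL/6 mice. Members were the probes whose gene name in the array files is 1 of these 7 names or an alias of it. Probes were found for 6 of the 7 genes, 10 of the 41174 probes on the array, against 19712 named genes in all. Hbb-b2 had no probe named for it, but 2 of the 4 Hbb-b1 probes also list its transcript. A single Agilent array per tissue read Cy3-labelled copies of total RNA in 1 colour. The adult liver came from mice 12 weeks old and the fetal liver from day 13.5 of gestation. The labels' wording does not settle whether the age also holds for the bone marrow donors. Neither sex nor the number of animals behind each RNA is given in the sources used here. The deposited intensities have no replicates, so no test, p-value or SD between samples is given, and each comparison describes 3 RNA samples.

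Hemoglobin is a tetramer of alpha-like and beta-like globin chains around heme. Mouse red cells of the yolk sac use the embryonic chains of Hba-x (zeta), Hbb-y (epsilon-y) and Hbb-bh1 (beta-h1), while the red cells made in the fetal liver and later in the bone marrow use the adult chains. Each set lies in a cluster, with the embryonic genes upstream of the adult ones. Eraf encodes a protein that binds free alpha globin and keeps it from precipitating.

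Promoter sequences are shown for 2 adult and 2 embryonic globins, because the results turn on how these sets differ between tissues. Each runs 5′ to 3′ from 150 bases before to 10 bases after the gene's start, from RefSeq on build GRCm38.p6. The Hbb-bt window is chr7:103813914-103814073 on the minus strand, and the Hbb-y window is chr7:103853198-103853357 on the minus strand. The Hba-a1 window is chr11:32283522-32283681 on the plus strand, and the Hba-x window is chr11:32276450-32276609 on the plus strand. Hbb-bt is the current symbol that RefSeq gives to the transcript of all 4 Hbb-b1 probes. Capitals mark the motifs CCAAT (the CCAAT box), CACCC (bound by factors such as Klf1), TATAA (the TATA box) and GATAA (bound by GATA factors), on either strand.
Hbb-bt: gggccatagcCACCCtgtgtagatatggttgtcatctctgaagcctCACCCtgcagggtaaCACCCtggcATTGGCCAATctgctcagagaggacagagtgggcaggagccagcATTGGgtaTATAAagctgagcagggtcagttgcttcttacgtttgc
Hbb-y: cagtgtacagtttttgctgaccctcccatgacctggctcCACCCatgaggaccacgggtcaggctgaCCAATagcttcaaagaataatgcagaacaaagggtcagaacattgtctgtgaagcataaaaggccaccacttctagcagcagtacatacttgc
Hba-a1: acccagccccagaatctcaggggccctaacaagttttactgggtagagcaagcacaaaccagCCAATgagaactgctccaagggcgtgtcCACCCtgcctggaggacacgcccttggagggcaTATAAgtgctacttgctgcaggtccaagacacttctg
Hba-x: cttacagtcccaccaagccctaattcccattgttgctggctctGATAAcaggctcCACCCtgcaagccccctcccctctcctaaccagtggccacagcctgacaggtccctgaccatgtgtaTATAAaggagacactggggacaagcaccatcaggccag
CCAAT was found 3 times in the Hbb-bt window, once each in those of Hbb-y and Hba-a1, and not in that of Hba-x. CACCC was found 3 times in the Hbb-bt window and once in each of the others. TATAA was found once in each window but that of Hbb-y, and GATAA only in that of Hba-x. No 2 of these matches overlapped. Among 32851 promoter windows of the same 160 bases, 25.4% held CCAAT, 39.0% CACCC, 14.8% TATAA and 14.1% GATAA. A match is a run of letters and does not show that a factor binds there. Hbb-bh1, Hbb-b2 and Eraf are named only.

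Of the gene spots, 58.8% were well above background on the bone marrow array, 52.6% on the adult liver array and 58.7% on the fetal liver array. The 75th percentile of the probe signals, which was used to scale the arrays, lay at 850.0 in bone marrow, 277.0 in adult liver and 368.0 in fetal liver. The 16 red cell markers were all well above background in bone marrow and in fetal liver, against 5 of 16 in adult liver. Their signals summed to 614750 in bone marrow, 16109 in adult liver and 393108 in fetal liver, and in adult liver 15200 of that was Alas2, the first enzyme of red cell heme synthesis. Of the 9 hepatocyte markers with a probe, 4 were well above background in bone marrow, 9 in adult liver and 8 in fetal liver, with summed signals of 834 in bone marrow, 802323 in adult liver and 380668 in fetal liver. Albumin (Alb) was not well above background in bone marrow and gave 293000 in adult liver and 67900 in fetal liver. The fetal plasma protein Afp gave 326 in bone marrow, 99.1 in adult liver and 210475 in fetal liver. Of the 10 neutrophil markers, all 10 were at least 4-fold higher in bone marrow than in fetal liver, against 8.32% of all genes. Of the 9 yolk sac and placenta markers with a probe, 2 were well above background in bone marrow, 4 in adult liver and 4 in fetal liver, with summed signals of 1203 in bone marrow, 1400 in adult liver and 1186 in fetal liver. Tpbpa, Gcm1, Psg17 and Psg23 were not well above background on any array, while Prl3d1 and Prl3b1 were so on all 3. Rhox5 gave 102 in adult liver and 554 in fetal liver and was not well above background in bone marrow. Cubn was well above background in fetal liver alone (76.8). Apoa4 was so in adult liver alone, and its 1010 made up most of the adult liver sum. The part of yolk sac or placental RNA in the embryonic globin signals was not tested. In bulk RNA, fewer red cell precursors and less globin RNA per cell cannot be told apart.

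The adult alpha globin probe was bright in both blood-forming tissues. Hba-a1 gave a processed signal of 469000 in bone marrow, 17100 in adult liver and 361000 in fetal liver. The probe maps to chr11:32183775-32183956 on the plus strand of mm9, the build of the array file, and lies within the transcript from base 103. Its accessions name both Hba-a1 and Hba-a2, which are near-identical, so it cannot separate them. On the scaled log2 level, adult liver was 3.99 lower than fetal liver (15.9-fold) and bone marrow 3.16 higher than adult liver (8.94-fold). Bone marrow differed from fetal liver by -0.83 on the log2 scale, a difference that turns positive under some scalings, as described below. The probe named Hba-a2, no member, gave 403000 in bone marrow, 16800 in adult liver and 322000 in fetal liver.

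The 4 probes of the adult beta globin Hbb-b1 were bright in the same tissues but disagreed on the size of the difference from adult liver. They lie between bases 110961112 and 110962376 of chromosome 7 on the minus strand of mm9. The probe starting at base 61 of the transcript gave 438000 in bone marrow, 3020 in adult liver and 201000 in fetal liver. The probe at base 231 gave 281000 in bone marrow, 10300 in adult liver and 206000 in fetal liver. The probe at base 262 gave 422000 in bone marrow, 35500 in adult liver and 361000 in fetal liver. The probe at base 496 gave 367000 in bone marrow, 22200 in adult liver and 311000 in fetal liver. All 4 were lowest in adult liver.

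**Figure D1:**
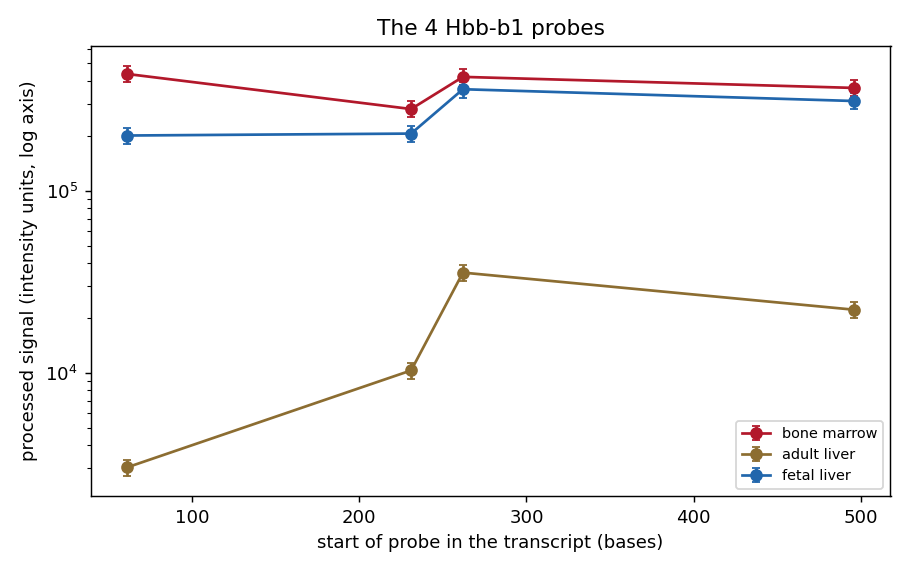
Processed signal (log axis, intensity units) of the 4 Hbb-b1 probes against their start in the transcript, with the scanner's spot error as bars and 1 array per tissue. Adult liver ranges from 3020 to 35500, while bone marrow stays between 281000 and 438000 and fetal liver between 201000 and 361000.

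Bone marrow over adult liver came to 5.56, 3.15, 1.95 and 2.43 on the log2 scale for the probes at bases 61, 231, 262 and 496. The probe at base 61 thus changed 12.2-fold more than that at base 262 in this comparison, a difference of 3.61 in log2 with a spot error of 0.29. Adult liver over fetal liver came to -5.65, -3.91, -2.94 and -3.40 for the same probes, and the change at base 61 was 6.55-fold larger than at base 262. A constant shift of an array leaves these differences between changes as they are. Normexp gave 11.6-fold and 6.26-fold for the 2 comparisons, and quantile normalization 11.1-fold and 6.01-fold. The probes at bases 61 and 496 list the Hbb-b2 transcript as well, and those at bases 231 and 262 share 29 bases.

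The embryonic alpha-like globin Hba-x was well above background in fetal liver alone. Its probe, at chr11:32177668-32177727 on the plus strand of mm9, gave 8.90 in bone marrow and 4.38 in adult liver, both not well above background, and 4640 in fetal liver. Against the lowest signal well above background on each array, Hba-x was at least 452-fold lower in bone marrow and at least 185-fold lower in adult liver than in fetal liver. With normexp background correction, which raises dim signals by its offset, these bounds were smaller, at -6.88 in bone marrow and -5.65 in adult liver on the log2 scale, against -8.82 and -7.53. No fold was formed between bone marrow and adult liver.

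The embryonic beta-like globin Hbb-bh1 was also brightest in fetal liver. Its probe at base 375 gave 92.0 in bone marrow, 3.87 in adult liver and 22200 in fetal liver. Its probe at base 395 gave 684 in bone marrow, 4.44 in adult liver and 20600 in fetal liver. Neither was well above background in adult liver. Bone marrow was 557-fold lower than fetal liver by the first probe and 69.6-fold lower by the second. The probes share 40 bases, at 110990307 to 110990386 of chromosome 7 on the minus strand, yet their changes differed 8.01-fold, with a spot error of 0.30 in log2. The fold between the changes was 5.09 with normexp and 6.86 with quantile normalization. Adult liver was at least 884-fold and at least 820-fold lower than fetal liver, bounds of -9.79 and -9.68 in log2 that became -8.05 and -7.82 with normexp.

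Hbb-y, the other embryonic beta-like globin, kept a high signal in bone marrow. It gave 37000 in bone marrow, 81.5 in adult liver and 45200 in fetal liver, from a probe at chr7:111001412-111001471 on the minus strand of mm9. Its level in bone marrow was 2.82-fold lower than in fetal liver, within the 4-fold size used here, and its level in adult liver 417-fold lower. Bone marrow over fetal liver was 24.7-fold and 198-fold less reduced for Hbb-y than for the Hbb-bh1 probes at bases 395 and 375. These values were 22.3-fold and 114-fold with normexp, and 31.1-fold and 213-fold with quantile normalization. Whether the Hbb-y probe also reads other globin RNA was not tested, since probe sequences were not used here.

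The chaperone gene Eraf followed the adult globins in the blood-forming tissues and was not well above background in adult liver. It gave 142000 in bone marrow, 4.64 in adult liver and 76000 in fetal liver. Bone marrow over fetal liver was -0.31 on the log2 scale (spot error 0.20). Eraf was at least 3027-fold lower in adult liver than in fetal liver and at least 2448-fold higher in bone marrow than in adult liver. These bounds, -11.56 and 11.26 in log2, were -9.58 and 9.40 with normexp. The adult globin probes gave 3020 to 35500 in the same adult liver RNA. The red cell membrane gene Slc4a1 gave 69.5 there. The part of red cell or reticulocyte RNA in these values was not tested.

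All 10 member probes were at least 4-fold lower in adult liver than in fetal liver, 4 of them as bounds, against 10.3% of all probes compared. The median over the members was -6.59 and that over all probes -0.07 on the log2 scale. The member median lies between the Hba-x bound (-7.53) and the Hbb-b1 probe at base 61 (-5.65), so it rests in part on a bound. The 10 probes stand for 6 genes and are not 10 separate readings. In bone marrow, 3 of 10 member probes were at least 4-fold lower than in fetal liver, against 10.7% of all probes. These were Hba-x and both Hbb-bh1 probes. None of the 10 was at least 4-fold higher, which is near the background of 2039 among the 25930 probes compared. The member median was -0.98 against -0.25 over all probes. Between bone marrow and adult liver, 7 of the 9 member probes compared were at least 4-fold higher in bone marrow, against 13.8% of all probes. The exceptions were the Hbb-b1 probe at base 262, at 3.87-fold, and the Hbb-bh1 probe at base 375, at a bound of 1.59-fold. The first of these rests on the scaling, at 1.95 in log2 with a spot error of 0.20. Most other scalings put it past 4-fold, at 2.02 to 4.82 in log2, but the percentile over gene spots (1.98) did not.

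**Figure D2:**
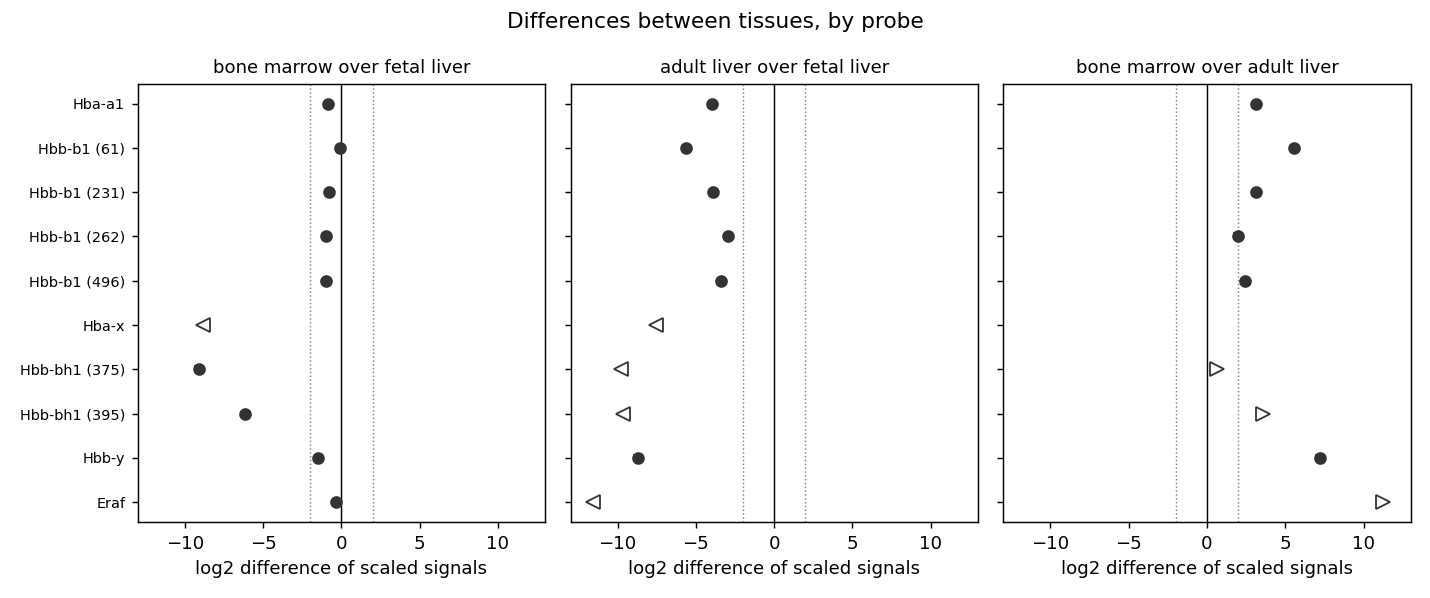
Log2 difference of scaled signals for each probe in the 3 comparisons, with the spot error as bars, bounds as hollow triangles and dotted lines at 4-fold. Adult liver lies below fetal liver for all 10 probes, while bone marrow lies more than 4-fold below fetal liver for Hba-x and Hbb-bh1.

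The direction of the small differences between bone marrow and fetal liver rests on the scaling. Scaling to the 7 spike-in probes assumes that equal amounts were added to each RNA, which was not tested. It moved the median over 18608 probes by 2.31 in log2 in this comparison. That median went from -0.24 to 2.06. Hba-a1 then stood at 1.48, the 4 Hbb-b1 probes between 1.32 and 2.22, and Hbb-y at 0.81, all higher in bone marrow. Eraf and the Hbb-b1 probe at base 61 were then at least 4-fold higher in bone marrow. With no scaling Hbb-y stood at -0.29 and Hba-a1 at 0.38. Hba-x stayed lower in bone marrow, at -6.51 with spike-ins, and the Hbb-bh1 probes at -6.82 and -3.81. The brightest spike-in differed by -0.51 between bone marrow and fetal liver, against -0.99 to -1.39 for the other 6. In bone marrow and fetal liver the adult globin signals lie near that brightest spike-in or above it, and compression of bright signals was not tested on the members.

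**Figure D3:**
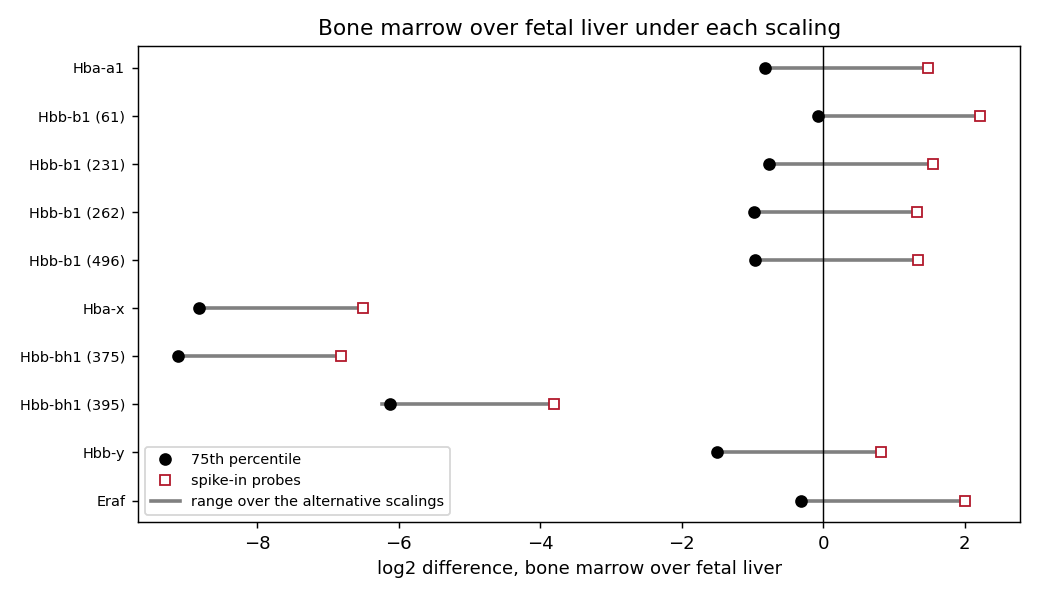
Log2 difference of bone marrow over fetal liver for each probe with the 75th percentile, with spike-in probes, and as a range over the alternative scalings. Hba-x and Hbb-bh1 stay below 0 throughout, while the adult globins, Hbb-y and Eraf lie on both sides of 0.

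As shares of the summed array signal, the 10 member probes held 1.78% in bone marrow, 0.147% in adult liver and 2.51% in fetal liver. The 4 embryonic probes held 0.0313% in bone marrow, 0.000157% in adult liver and 0.145% in fetal liver.

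Of the 38 regulators of globin genes, 37 could be compared between adult and fetal liver. Of these 37, 17 were at least 4-fold lower in adult liver (11.8% of all genes) and 1 was higher (14.4%). Klf1, the activator of the adult beta globin gene, gave 15000 in bone marrow, 106 in adult liver and 11900 in fetal liver. Bcl11a, which silences embryonic beta-like globins, gave 3680 in bone marrow, 59.2 in adult liver and 2730 in fetal liver. Neither Klf1 (-0.87 in log2) nor Bcl11a (-0.78) differed 4-fold between bone marrow and fetal liver. Gata1 (-0.76), Myb (-0.10), Sox6 (-0.14), Zbtb7a (-0.58) and Nfe2 (-0.16), factors of red cell genes, did not either. In that comparison 6 regulators were lower in bone marrow (9.29% of all genes) and 1, the methyl-CpG binding Mbd2, was higher at 4.04-fold (8.32%). The lowest were the RNA-binding Igf2bp1, at least 255-fold lower in bone marrow, the chromatin protein Hmga2 at 156-fold, and the RNA-binding Lin28b at least 95.4-fold. Igf2bp1 and Lin28b were not well above background in bone marrow or adult liver and gave 2620 and 979 in fetal liver. The Hmga2 fold rests on a dim signal of 30.0 in bone marrow, where the lowest signal well above background was 23.7, against 2030 in fetal liver. Of the 35 regulators compared between bone marrow and adult liver, 11 were higher in bone marrow (14.8%) and 2 lower (19.0%). Nfe2 was 209-fold, Myb at least 155-fold and Tal1 89.7-fold higher, and Nr2f2 was 87.9-fold lower.

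Of 12 genes for alpha globin chaperoning and globin balance, none differed 4-fold between bone marrow and fetal liver. Over all genes, 9.29% were lower and 8.32% higher in bone marrow, so a count of none of 12 is near the background. In adult liver 2 were lower than in fetal liver, the ubiquitin enzyme Ube2o at 15.2-fold and the ubiquitin protease Usp1 at 8.18-fold, and 1 was higher, the autophagy gene Atg7 at 4.83-fold. Between adult and fetal liver the shares over all genes were 11.8% lower and 14.4% higher, so these counts of 12 lie near the background. Of 16 genes of red cell redox and hemoglobin function, 1 was at least 4-fold higher in bone marrow than in fetal liver, the carbonic anhydrase Car1 at 31.1-fold, against 8.32% of all genes. Car1 gave 20700 in bone marrow, 267 in adult liver and 288 in fetal liver. Car2, another carbonic anhydrase, was 219-fold lower in adult liver than in fetal liver and 330-fold higher in bone marrow than in adult liver. The list was split, however. Between bone marrow and adult liver, 5 of the 16 were higher in bone marrow (14.8% of all genes) and 5 lower (19.0%), with Cat at 11.3-fold and Cyb5r3 at 10.9-fold lower. In adult liver 4 were lower than in fetal liver (11.8%) and 2 higher (14.4%). Of 10 genes of hemoglobin and heme clearance, the hemoglobin-binding plasma protein Hp gave 142000 in bone marrow, 184000 in adult liver and 1180 in fetal liver. The heme-binding Hpx was not well above background in bone marrow and gave 54700 in adult liver and 1390 in fetal liver, which made it at least 7082-fold lower in bone marrow than in adult liver. Cd163, the receptor for hemoglobin bound to Hp, gave 871 in bone marrow and 562 in adult liver and was not well above background in fetal liver.

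By the distance between 2 log2 differences over 3 tissues, searched over the 11685 genes that all 3 arrays detected above background, the genes nearest to Hba-a1 were H1f4 (0.05), Septin8 (0.07) and Ssbp2 (0.09). Those nearest to Hbb-y were Mns1 (0.28), Uhrf1 (0.33) and Csta1 (0.45). Those nearest to the Hbb-b1 probe at base 262 were Golt1b (0.03), Tamm41 (0.09) and Dtymk (0.09), and the other Hbb-b1 probes, with other differences, were not searched. For Hba-a1 and this Hbb-b1 probe the spot error of 1 difference was 0.20, larger than these distances. For Hbb-y the spot errors of its 2 differences were 0.20 and 0.22, larger than the steps between its distances. The order of the genes nearest to these 3 probes is therefore not resolved. For Hba-x, Hbb-bh1 and Eraf the distance would rest on bounds, and none is given.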

How the data were processed

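Per the submitters' processing notes, the scanner images were read by Agilent Feature Extraction 10.5.1.1. Its background-subtracted intensity per spot, deposited in the scanner files and not normalized between arrays per the file headers, was used. The authors' deposited table holds a normalized ratio column, which followed the scanner's spot error and not its signal (proportional within 1% on all 45018 spots), so it served only as an alternative.

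From the files, log2 of the processed signal minus its 75th percentile over the gene probes of the array was taken (pandas 2.3.3 and numpy 2.4.6 under Python 3.11.15). Controls and outlier-flagged spots did not enter, and spots of a probe were averaged. A difference was counted at 4-fold, as a size and not a test. A probe not well above background on 1 side has a bound, formed against the higher of its own level and the lowest level well above background. A gene with several probes was represented by the one well above background on most arrays, ties going to the brightest. The text names every member probe, 7 globin regulators, the 3 nearest patterns where a member was measured on all arrays and, of the other lists, genes among the 3 largest differences in each direction of a comparison. All 9 yolk sac and placenta markers with a probe are named, a choice made after their values were seen. Normexp (offset 50) and quantile scaling used limma 3.58.1 in R 4.3.3. Errors given are the scanner's own for 1 spot and leave out variation between animals. The arrays' number limits the precision. The steps were tested on simulated data. The percentile over gene spots, which gives slightly different folds, was also tried after the data were seen, and the percentile over probes was kept because the written design names it. The members and lists were chosen with earlier results of these data known.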

Additional observations from a re-analysis of the deposited data

How the results depend on the processing

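The number of member probes at least 4-fold different was 3 between bone marrow and fetal liver, 10 between adult and fetal liver and 7 between bone marrow and adult liver. Scaling to spike-in probes gave 5 between bone marrow and fetal liver. Of these, 3 (Hba-x and both Hbb-bh1 probes) were lower and 2 (Eraf and the Hbb-b1 probe at base 61) higher in bone marrow. The median of 18608 probes then lay at 2.06 in log2, so being 4-fold higher there is not particular to the members. With only probes well above background on all 3 arrays, which leaves fewer probes, the count was 0 between bone marrow and fetal liver and 6 between adult and fetal liver. The other lists held 44 genes past 4-fold between bone marrow and fetal liver under spike-ins, against 11, and 60 between bone marrow and adult liver, against 32. For bone marrow over adult liver, the median of the same 18608 probes then lay at 2.69. The cause of the spike-in shifts was not tested. The other 34 recomputed counts stayed within 1.5 times, among them those with the percentile over gene spots, an alternative chosen after seeing the data, which gave 3, 10 and 7. They also include counts from the authors' deposited column, which followed the spot error. For bright spots that error was a near-fixed part of the signal, as for Hba-a1 in bone marrow (46900 of 469000). Those counts are therefore no separate check. Of 142 recomputed values of single members, 81 moved by less than the spot error and 61 by more, and none that was past 4-fold changed direction. The error allowed was wider for bounds. In adult over fetal liver, the Eraf bound moving from -11.56 to -10.31 counted as less, while Hba-a1 moving from -3.99 to -4.21 counted as more. No paired analysis was possible because each tissue has 1 array. Leaving out a replicate was not possible for the same reason. Signals near background limit Hba-x, Hbb-bh1 and Eraf in adult liver to bounds, and normexp lowers the size of these bounds.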
